A study of Mus musculus with 20 samples.

Results

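The genes described here are the IL-6, oncostatin M and LIF family together with its feedback inhibitor: 4 ligand genes (Il6, Osm, Lif, Il11), 4 receptor genes for single ligands or pairs of them (Il6ra, Osmr, Lifr, Il11ra1), the shared receptor gene Il6st and Socs3. They were taken by gene symbol from a table of raw RNA-seq read counts, where all 10 were found among 46983 genes. The 20 libraries came from pancreatic tumours at 2 weeks, grown from KPC cells, cultured lines of murine pancreatic cancer, placed orthotopically in untreated C57BL/6 mice. The hosts were wild type (WT) or IL33-/-, with 5 mice of each named, and every group had 5 libraries: tumour-infiltrating leukocytes taken with CD45+ magnetic beads (sorted) or tumour not so labelled (bulk), for each host. All hosts carried the same kind of implanted tumour cells, for which the labels give no Il33 genotype, and which mouse gave which library is not stated. The labels carry 1 extraction text for all 20 libraries, bead selection included, so how the bulk samples were handled is not described separately.

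Members of this family signal through gp130, the protein of Il6st, which pairs with a second chain that sets which cytokine is heard. The chains switch on JAK kinases and the transcription factor STAT3, and STAT3 induces Socs3, whose protein binds the receptor and kinases and stops the signal. IL-6 needs the IL-6 receptor chain on the cell or in a shed, soluble form. In pancreatic cancer, IL-6 and LIF are known as signals from stromal cells, and oncostatin M as a product of macrophages and neutrophils.

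The depth was 51.3 to 81.0 M (mega) counts assigned to genes per library, with a median of 59.5 M. Levels are given as CPM, a count rescaled to its library's TMM-adjusted size, and 3 counts equalled 0.0331 to 0.0676 CPM. Il33 was counted in every library, with 272 to 1123 counts in sorted and 3043 to 4726 in bulk libraries; its log2 difference, IL33KO minus WT, was +0.47 (SE 0.29, edgeR adjusted p = 0.524) in sorted leukocytes and −0.33 (SE 0.13, adjusted p = 0.724) in bulk tumour. Counts per gene do not tell the exons apart and the deleted part is not described, so this does not check the genotype, and the groups are called libraries labelled IL33KO. The 8 pan-leukocyte markers summed to 7066 to 9497 CPM in sorted and 548 to 1305 CPM in bulk libraries. The sorted libraries also held 1010 to 2675 CPM of 7 epithelial markers, against 6239 to 9066 CPM in bulk. The 6 acinar markers instead had higher median sums in the sorted libraries, at 2555 CPM in WT and 2392 CPM in those labelled IL33KO. Their bulk median was 39.2 CPM in WT, and bulk libraries labelled IL33KO had 23.9 to 1431 CPM. The highest acinar sums were 37998 CPM in sorted IL33KO 3 and 8690 CPM in bulk WT 5. The 6 endothelial markers had a median log2 difference, sorted minus bulk, of −1.04 in WT hosts and −0.86 in hosts labelled IL33KO. By edgeR, 1 was higher and 4 were lower in sorted libraries of each host. Their median sums were still higher in sorted libraries, at 149 and 132 CPM, against 64.0 and 91.4 CPM in bulk. The sorted sum was mostly Pecam1, with a mean of 112 CPM in sorted and 26.0 CPM in bulk WT libraries. The epithelial and acinar sums show that the sorted libraries held RNA of other cell types. No gene of any marker list was at 0 throughout a group.

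The sequence before a RefSeq start of 3 of these genes is shown because it holds a match to a STAT, NF-kB or AP-1 motif. Of the 10 members, 9 had an entry in the RefSeq promoter windows (GRCm38.p6), each read over the 250 bases before the annotated start, and Osm had none. The motifs searched on both strands were TTCNNNGAA (STAT), that of NF-kB (GGG, any pair of bases, then TTTCC) and TGANTCA (AP-1), and capitals mark the matches. The Il6 window (chr5:30012864-30013113, plus strand) is whole, the Lif window (chr11:4257318-4257556, plus strand) stops at the first exon in GENCODE M21, and the Socs3 window (chr11:117969452-117969616, minus strand) stops at an exon of that annotation inside it. The Socs3 window lies within the bounds of the gene in GENCODE M21, downstream of its annotated 5′ end.
Il6: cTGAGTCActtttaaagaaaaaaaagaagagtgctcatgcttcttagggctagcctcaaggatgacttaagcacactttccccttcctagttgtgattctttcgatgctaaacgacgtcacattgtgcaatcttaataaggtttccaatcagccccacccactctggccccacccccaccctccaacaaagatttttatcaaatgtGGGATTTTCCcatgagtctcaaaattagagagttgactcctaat
Lif: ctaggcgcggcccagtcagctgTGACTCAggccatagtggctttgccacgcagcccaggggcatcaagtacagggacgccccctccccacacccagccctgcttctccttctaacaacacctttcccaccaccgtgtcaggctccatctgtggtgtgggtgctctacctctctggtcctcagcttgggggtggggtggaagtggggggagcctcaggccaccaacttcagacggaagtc
Socs3: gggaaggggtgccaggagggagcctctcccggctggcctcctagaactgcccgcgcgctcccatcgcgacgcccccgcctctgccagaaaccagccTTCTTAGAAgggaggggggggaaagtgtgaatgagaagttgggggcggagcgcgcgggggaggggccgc
Il6 held GGGATTTTCC with its first base 44 bases before the start, and TGAGTCA 249 before it. Lif held TGACTCA 228 bases before its RefSeq start, and Socs3 held TTCTTAGAA 154 bases before its RefSeq start. Of 32851 windows, 7.02% held the STAT motif, 1.41% the NF-kB motif and 6.75% the AP-1 motif. Among the other members' windows, an AP-1 match stood in 1 of those of Il11. A match is a string of letters and not a measured binding site.

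Osm (ENSMUSG00000058755.3, chromosome 11, 4236420 to 4241026, GRCm38) was the dominant ligand gene of the sorted leukocytes. It encodes oncostatin M, which acts through OSMR with gp130. In sorted WT libraries 1 to 5 it stood at 716, 612, 486, 497 and 663 CPM, and in those labelled IL33KO at 343, 436, 457, 549 and 393 CPM. Bulk WT libraries had 1.80, 1.67, 4.08, 1.54 and 8.75 CPM, and bulk libraries labelled IL33KO 2.22, 2.63, 3.74, 3.28 and 5.07 CPM. Every sorted library was thus far above every bulk library, and bulk WT 5 was the highest of the bulk libraries. The sorted level was 168-fold the bulk level in WT hosts (log2 +7.39, SE 0.49, edgeR adjusted p = 3.54e-10) and 131-fold in hosts labelled IL33KO (log2 +7.03, SE 0.48, adjusted p = 8.99e-10). Without bulk WT 5 the difference in WT hosts was +8.05 on the log2 scale (SE 0.37, adjusted p = 9.04e-12).

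Il6 (ENSMUSG00000025746.11, chromosome 5, 30013114 to 30019981) was also higher in sorted leukocytes, at a far lower level. Sorted WT libraries had 21.0, 6.99, 17.8, 8.16 and 18.4 CPM, and sorted libraries labelled IL33KO 8.44, 9.92, 9.49, 23.0 and 11.0 CPM. In bulk tumour it was at 0.235, 0.212, 0.597, 0.236 and 1.90 CPM in WT and at 0.519, 0.379, 1.31, 1.11 and 1.20 CPM in those labelled IL33KO, from 15 to 148 counts. The sorted and bulk ranges did not overlap, although Il6 spread widely inside each group. The log2 difference, sorted minus bulk, was +4.50 (SE 0.62, 22.7-fold, adjusted p = 3.17e-06) in WT hosts and +3.80 (SE 0.60, 13.9-fold, adjusted p = 2.03e-05) in hosts labelled IL33KO. Without bulk WT 5 the value in WT hosts was +5.50 (SE 0.54, adjusted p = 5.35e-08).

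Lif (ENSMUSG00000034394.14, chromosome 11, 4257557 to 4272514), the gene of leukemia inhibitory factor, lies 16.5 kb from Osm with no annotated gene between them, yet its level did not follow that of Osm. It stood at 20.2, 10.1, 12.0, 14.5 and 18.5 CPM in sorted WT and 8.23, 8.84, 14.9, 16.2 and 12.6 CPM in sorted libraries labelled IL33KO. In bulk it stood at 14.7, 13.6, 15.6, 15.7 and 30.2 CPM in WT and 17.1, 16.8, 19.0, 15.4 and 23.8 CPM in those labelled IL33KO. Sorted and bulk libraries overlapped in both hosts. The log2 difference, sorted minus bulk, was −0.24 (SE 0.25, adjusted p = 0.392) in WT hosts. In hosts labelled IL33KO it was −0.58 (SE 0.25, adjusted p = 0.0493), a call that was lost without any of 7 of the 10 libraries (adjusted p up to 0.125) and with DESeq2 size factors (adjusted p = 0.0507).

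Il11 (ENSMUSG00000004371.14, chromosome 7, 4772373 to 4782859, minus strand), whose product acts through IL11RA and gp130, was the scarcest member. Sorted libraries held 1 to 10 counts (0.0202 to 0.170 CPM) and bulk libraries 20 to 73 counts (0.261 to 0.935 CPM). The sorted and bulk ranges did not overlap, and the log2 difference was −1.79 (SE 0.42, adjusted p = 0.000894) in WT hosts and −2.35 (SE 0.43, adjusted p = 0.000106) in hosts labelled IL33KO.

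**Figure D1:**
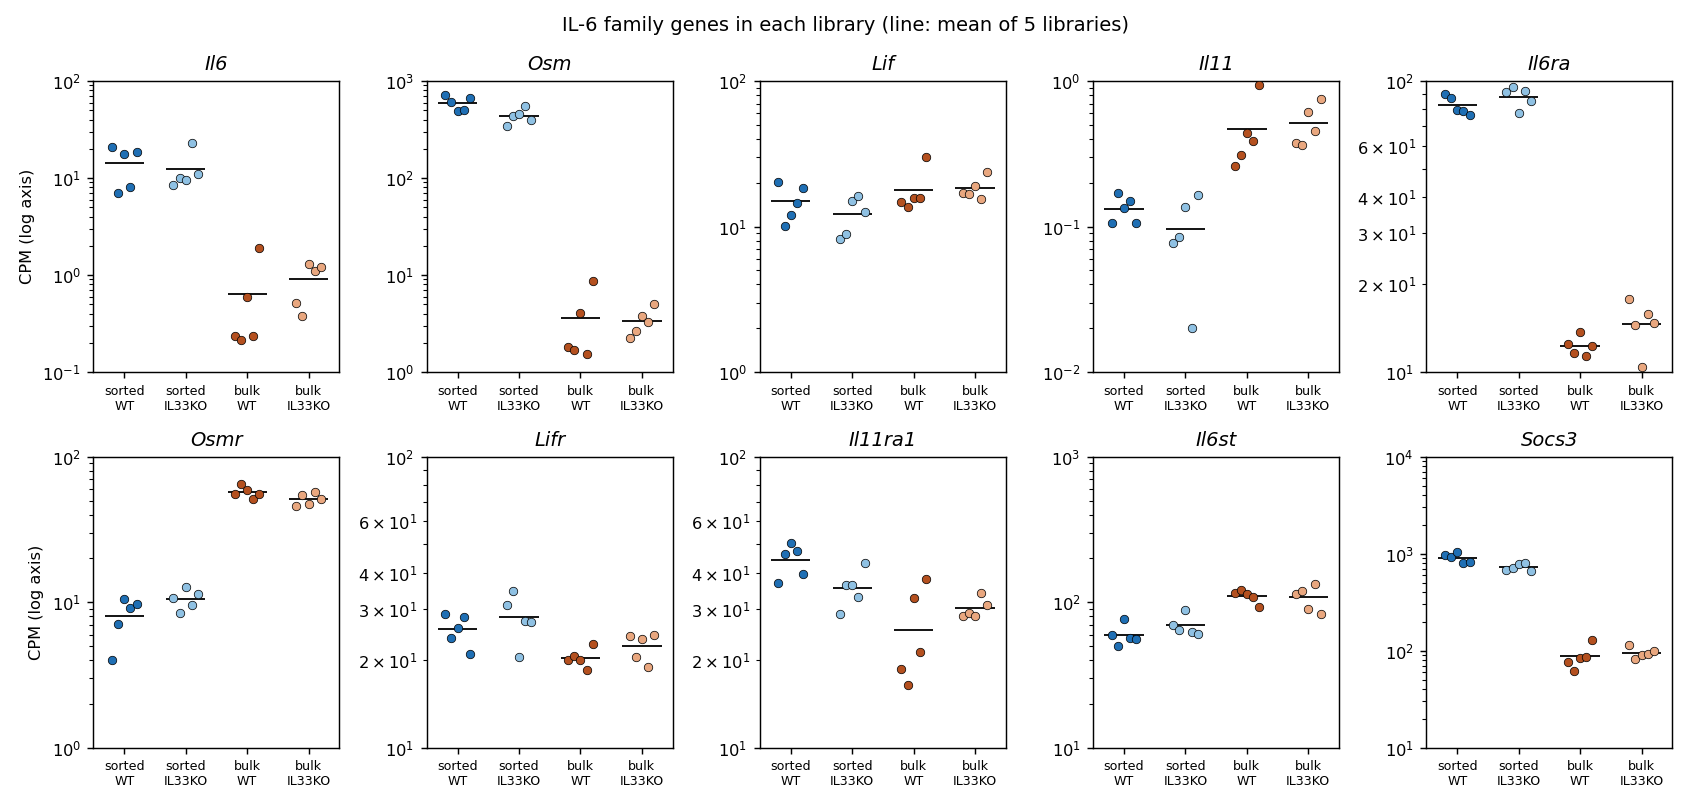
CPM of the 10 genes in each of the 20 libraries on a log axis, with a horizontal line at the mean of the 5 libraries of a group. Osm, Il6, Il6ra and Socs3 sit higher in all sorted than in all bulk libraries, Osmr and Il11 lower, and Lif overlaps.

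To compare the ligand genes with each other, CPM were divided by the merged exon length in kb, and the share of each in the sum of the 4 was taken. Osm made up 96.5% ± 1.03 (SD, n = 5) of the ligand signal in sorted WT libraries and 96.1% ± 0.82 in those labelled IL33KO. In bulk tumour Lif led, with 70.3% ± 9.87 in WT and 67.3% ± 5.39 in libraries labelled IL33KO, and Osm followed with 22.7% ± 8.02 and 23.1% ± 3.13. Il6 made up 2.18% ± 0.90 and 2.48% ± 0.73 in the sorted groups and 3.43% ± 1.93 and 5.74% ± 2.29 in bulk, in the same order of hosts. Osm was the largest share in all 10 sorted libraries and Lif in all 10 bulk libraries, while Il6 was a small share in both.

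**Figure D2:**
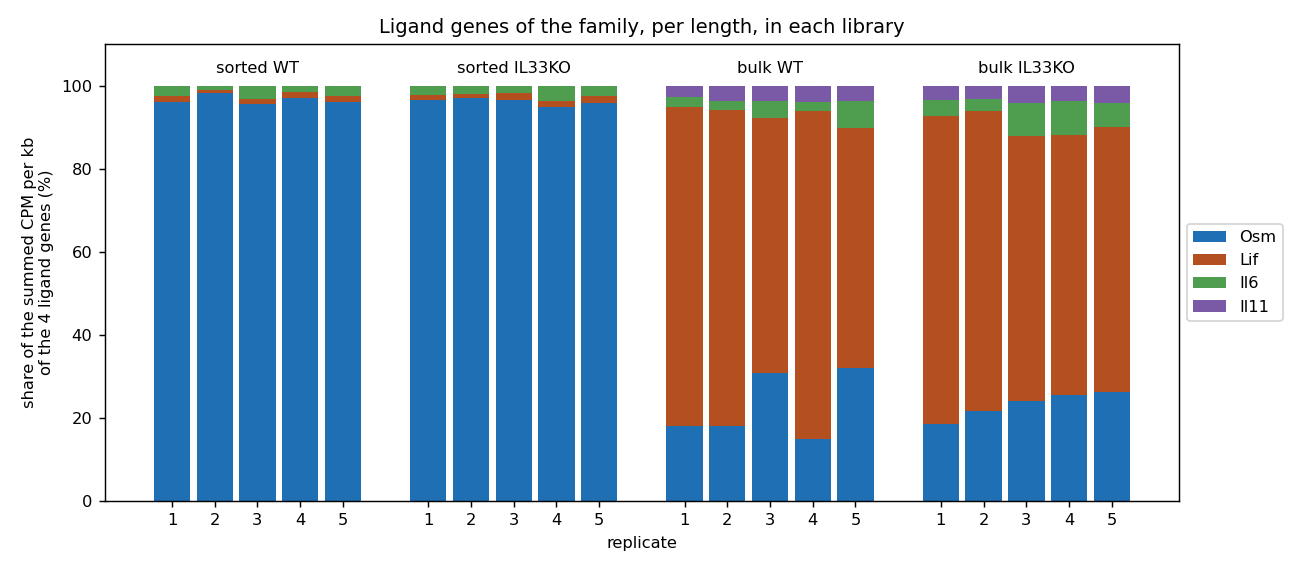
Share of each ligand gene in the summed CPM per kb of the 4 ligand genes, in percent, stacked for each library. Osm fills 94.8 to 98.1% of the sorted libraries, and Lif 57.7 to 79.0% of the bulk libraries.

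The receptor genes fell into different classes. Il6ra (ENSMUSG00000027947.11, chromosome 3, 89864059 to 89913196, minus strand), the IL-6 binding chain, was higher in leukocytes. It stood at 90.0, 87.1, 79.7, 79.0 and 76.3 CPM in sorted WT and 91.4, 95.1, 77.9, 92.2 and 85.4 CPM in sorted libraries labelled IL33KO. In bulk it was at 12.4, 11.6, 13.7, 11.4 and 12.3 CPM in WT and 17.9, 14.5, 10.4, 15.8 and 14.7 CPM in those labelled IL33KO. These groups were tight and far apart, with 6.77-fold more in sorted than bulk WT (log2 +2.76, SE 0.11, adjusted p = 1.03e-12) and 6.14-fold more in hosts labelled IL33KO (log2 +2.62, SE 0.11, adjusted p = 3.07e-12). A gene model, Gm42809, overlaps Il6ra, and the strand setting of the counting is not given, so the value of Il6ra is uncertain to that extent.

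Osmr (ENSMUSG00000022146.12, chromosome 15, 6813577 to 6874969, minus strand), the chain that binds oncostatin M with gp130, showed the opposite pattern to its ligand. Sorted WT libraries had 4.01, 7.06, 10.5, 9.08 and 9.80 CPM and sorted libraries labelled IL33KO 10.7, 8.40, 12.7, 9.58 and 11.3 CPM. Bulk WT libraries had 55.6, 64.7, 59.5, 51.4 and 55.3 CPM and bulk libraries labelled IL33KO 46.0, 54.4, 47.5, 57.4 and 50.9 CPM. No sorted library reached a bulk one. Osmr was 7.01-fold lower in sorted leukocytes of WT hosts (log2 −2.81, SE 0.19, adjusted p = 4.21e-10) and 4.77-fold lower in those labelled IL33KO (log2 −2.25, SE 0.19, adjusted p = 7.80e-09). The epithelial and fibroblast markers moved the same way, with fibroblast sums of 165 to 911 CPM in sorted and 907 to 4662 CPM in bulk libraries; whether the sorted Osmr reads came from such cells was not tested.

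Il6st (ENSMUSG00000021756.12, chromosome 13, 112464070 to 112510086), the shared gp130 chain, was lower in leukocytes by a smaller step. It had 59.9, 50.3, 76.5, 57.2 and 55.6 CPM in sorted WT and 69.7, 64.6, 89.0, 62.8 and 60.7 CPM in sorted libraries labelled IL33KO. Bulk values were 116, 122, 115, 108 and 93.1 CPM in WT and 115, 119, 90.2, 134 and 82.4 CPM in those labelled IL33KO. The groups did not overlap in WT hosts (log2 −0.87, SE 0.14, adjusted p = 1.70e-05), whereas in hosts labelled IL33KO sorted replicate 3 overlapped bulk replicate 5 (log2 −0.61, SE 0.14, adjusted p = 0.000763).

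Lifr (ENSMUSG00000054263.11, chromosome 15, 7090614 to 7197489), which pairs with gp130 for LIF, and Il11ra1 (ENSMUSG00000073889.10, chromosome 4, 41699989 to 41769474), the IL-11 chain, had values closer together in sorted and bulk libraries than Il6ra and Osmr did. Lifr ranged from 20.5 to 34.6 CPM over the sorted and from 18.5 to 24.4 CPM over the bulk libraries. Its log2 difference, sorted minus bulk, was +0.34 (SE 0.13, adjusted p = 0.0230) in WT hosts and +0.35 (SE 0.12, adjusted p = 0.0188) in those labelled IL33KO. The call in WT hosts was lost without sorted WT 1, sorted WT 4 or bulk WT 4 (adjusted p 0.0568 to 0.0619), and that in hosts labelled IL33KO without sorted IL33KO 2 or bulk IL33KO 4 (adjusted p 0.0698 and 0.0573). Il11ra1 had 36.7, 46.3, 50.4, 47.5 and 39.7 CPM in sorted WT and 18.7, 16.4, 32.8, 21.4 and 37.9 CPM in bulk WT. In libraries labelled IL33KO it ranged from 28.9 to 43.2 CPM (median 36.3) in sorted and from 28.3 to 34.0 CPM (median 29.0) in bulk. The ranges overlapped in both hosts, with a log2 difference of +0.81 (SE 0.18, adjusted p = 0.000764) in WT hosts and +0.26 (SE 0.18, adjusted p = 0.219) in those labelled IL33KO. The annotated Il11ra1 locus overlaps 6 other genes, and the gene has a near-identical copy, Il11ra2, so its counts are uncertain.

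Socs3 (ENSMUSG00000053113.3, chromosome 11, 117966079 to 117970047, minus strand), the feedback inhibitor that STAT3 induces, had the highest mean level per length of the members in all 4 groups. Sorted WT libraries had 971, 927, 1046, 807 and 814 CPM, and sorted libraries labelled IL33KO 683, 717, 789, 797 and 666 CPM. Bulk WT libraries had 77.1, 62.1, 84.1, 86.4 and 129 CPM, and bulk libraries labelled IL33KO 114, 83.1, 91.3, 91.7 and 98.2 CPM. All sorted libraries were above all bulk libraries, by 10.5-fold in WT hosts (log2 +3.39, SE 0.16, adjusted p = 8.26e-12) and 7.77-fold in those labelled IL33KO (log2 +2.96, SE 0.16, adjusted p = 4.79e-11).

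Counted over the family, 9 of 10 members passed the edgeR test for sorted against bulk in WT hosts (adjusted p under 0.05), against 68% of the 18145 genes tested. Of these, 6 were higher in sorted leukocytes (33.7% of all genes) and 3 lower (34.3% of all genes). In hosts labelled IL33KO 9 of 10 passed (63% of all genes), 5 higher (31.3%) and 4 lower (31.7%). The ranges of sorted and bulk libraries did not overlap for 7 members in WT hosts (50.4% of all genes) and for 6 in hosts labelled IL33KO (48.7%). Since most genes differed, these counts are not particular to the family, and the members' sizes and directions carry the comparison. In bulk tissue, fewer leukocytes and less RNA per leukocyte cannot be told apart.

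The 8 pan-leukocyte markers gave a yardstick, with a median log2 difference of +3.48 in WT hosts and +3.14 in hosts labelled IL33KO, and all 8 higher in both. Each member was therefore also measured relative to the mean log2 CPM of those markers in the same library, with a two-sided exact permutation test whose smallest p is 0.00794. These 20 p-values are not adjusted. Osm rose beyond the leukocyte markers, by +4.12 on the log2 scale in WT hosts and +3.89 in hosts labelled IL33KO (exact p = 0.00794 in both). Il6 exceeded them by +1.24 in WT hosts (exact p = 0.0238) and differed by +0.63 in hosts labelled IL33KO (exact p = 0.214). Socs3 stood at −0.18 (exact p = 0.349) and −0.21 (exact p = 0.294), so that no departure from the markers was detected for it. Il6ra lay below them by −0.85 (exact p = 0.0238) and −0.54 (exact p = 0.0397); p rose to between 0.0556 and 0.0794 without sorted WT 3, sorted WT 5, sorted IL33KO 3 or any of bulk IL33KO 1 to 4, each left out singly. The other 6 members lay between −2.73 and −6.48 in both hosts (exact p = 0.00794 each). These values depend on the yardstick, since leukocyte subsets differed. In WT hosts and hosts labelled IL33KO, the median log2 difference was +4.08 and +4.33 for neutrophil and +4.38 and +3.86 for B cell markers. It was +3.36 and +2.59 for macrophage, +3.06 and +2.80 for T cell, and +3.19 and +2.76 for mast cell and basophil markers.

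**Figure D3:**
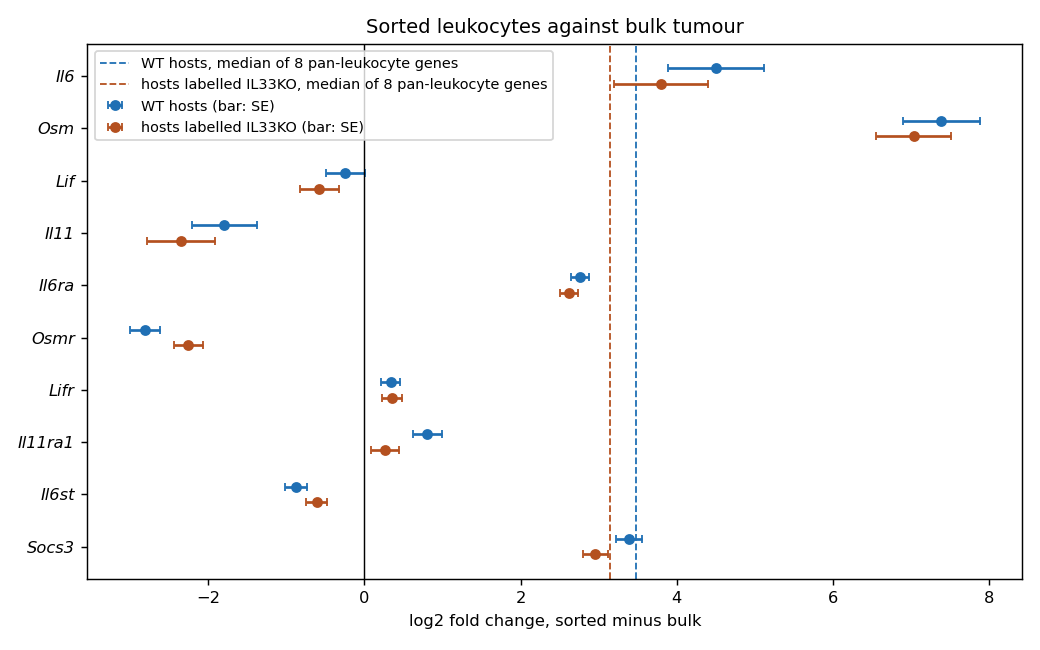
Log2 fold change of each gene, sorted minus bulk, with its standard error, in WT hosts and hosts labelled IL33KO (5 libraries per group). Dashed lines mark the median of the 8 pan-leukocyte genes, +3.48 and +3.14. Osm lies to the right of both, Socs3 near them, Il6ra to the left of both, and Osmr and Il11 on the negative side.

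Other genes of the pathway were taken from 6 lists. Over all genes tested, 33.7% were higher and 34.3% lower in sorted leukocytes of WT hosts, and 31.3% and 31.7% in hosts labelled IL33KO. Among the other gp130 ligands and receptors, 8 of 10 were tested, and 4 were higher and 4 lower in sorted leukocytes of both hosts. Ebi3, a subunit of IL-27 and IL-35, stood at 49.9 CPM in sorted and 3.54 CPM in bulk WT libraries (log2 +3.83, SE 0.25, adjusted p = 2.95e-10), while Ctf1, which encodes cardiotrophin, stood at 0.677 and 2.96 CPM (log2 −2.11, SE 0.20, adjusted p = 2.56e-08). Of 10 JAK-STAT and adaptor genes, 9 were higher and 1 lower in WT hosts, and 7 and 1 in hosts labelled IL33KO. Stat3 itself rose from 174 CPM in bulk to 280 CPM in sorted WT libraries (log2 +0.70, SE 0.08, adjusted p = 6.75e-07). Of 7 inhibitors, 4 were higher and 1 lower in both hosts, led by Ptpn6, a phosphatase of blood cells (log2 +2.86, SE 0.16, adjusted p = 3.72e-11 in WT hosts). Adam17, a protease that sheds the IL-6 receptor, was higher in sorted leukocytes of both hosts (log2 +1.18, SE 0.12, adjusted p = 1.01e-07 in WT hosts). Adam10 was lower in WT hosts (log2 −0.68, SE 0.18, adjusted p = 0.00219) and stood at −0.24 (SE 0.18, adjusted p = 0.246) in hosts labelled IL33KO.

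Of 15 STAT3 target genes, 10 were higher and 3 lower in sorted leukocytes of WT hosts (median log2 difference +1.12, over all genes −0.00), and 8 and 3 in hosts labelled IL33KO (median +0.52). Both medians lay below those of the pan-leukocyte markers, +3.48 and +3.14. Pim1, a kinase gene, stood at 985 CPM in sorted and 55.7 CPM in bulk WT libraries (log2 +4.16, SE 0.19, adjusted p = 6.05e-12). The largest difference among them was that of Fos, an immediate-early gene that stress and cell isolation are known to induce, at 2493 CPM in sorted and 34.6 CPM in bulk WT libraries (log2 +6.18, SE 0.17, adjusted p = 8.99e-15) and +6.03 (SE 0.17, adjusted p = 1.25e-14) in hosts labelled IL33KO. For Osm, Il6 and Socs3 too, cell type and the handling of sorted cells cannot be told apart in this design. Of the 8 acute-phase genes, 7 were tested; 3 were higher and 1 lower in WT hosts, and 3 higher and 0 lower in hosts labelled IL33KO, led in both by Hp, the haptoglobin gene (log2 +3.58, SE 0.41, adjusted p = 3.23e-07 in WT hosts).

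Levels of different genes were ordered per length, as CPM per kb. In sorted WT libraries Socs3 (316 ± 35.5, SD, n = 5) and Osm (262 ± 44.5) led and overlapped each other, and no other member exceeded 11.3 in any library. Il11ra1 (9.87 ± 1.28) and Il6ra (9.54 ± 0.68) came next and overlapped; Il6 (5.95 ± 2.64), Il6st (5.40 ± 0.89), Lif (3.46 ± 0.98) and Lifr (2.37 ± 0.30) followed, each overlapping its neighbour. Osmr (0.668 ± 0.217) and Il11 (0.0638 ± 0.0134) were lowest, each apart from the gene above. In sorted libraries labelled IL33KO Il6ra stood above Il11ra1 and Il6st above Il6, but these neighbours overlapped. In bulk WT tumour Socs3 (30.4 ± 8.68) led alone, followed by Il6st (9.98 ± 0.99), Il11ra1 (5.69 ± 2.10), Osmr (4.73 ± 0.42) and Lif (4.13 ± 1.59), each overlapping its neighbour. Lifr (1.89 ± 0.14), Osm (1.57 ± 1.36) and Il6ra (1.42 ± 0.11) overlapped, and Il6 (0.262 ± 0.298) and Il11 (0.225 ± 0.130) were lowest and overlapped. Bulk libraries labelled IL33KO had the same 3 leading genes, Socs3, Il6st and Il11ra1, and the same 2 lowest, Il6 and Il11.

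The host comparison asked whether these genes differed between tumours of hosts labelled IL33KO and of WT hosts. In sorted leukocytes 0 of the 9 members tested passed the edgeR test (0.012% of the 16731 genes tested passed), and 0 of them passed with DESeq2 or with limma voom using quality weights per sample. Il11 was too low to test. At an unadjusted p under 0.05, where 12.9% of all genes lay, stood 3 of 9 members: Osm, Socs3 and Il11ra1, all with lower values in the libraries labelled IL33KO. Socs3 alone had groups that did not overlap (3.7% of all genes), with 807 to 1046 CPM in WT and 666 to 797 CPM in libraries labelled IL33KO. Its log2 difference was −0.31 (SE 0.09, unadjusted p = 0.00724, adjusted p = 0.229, two-sided exact permutation p = 0.00794). For Osm it was −0.44 (SE 0.15, unadjusted p = 0.0156, adjusted p = 0.286), with 595 ± 101 CPM in WT and 435 ± 76.8 CPM in libraries labelled IL33KO (SD, n = 5), and 5 of 5 below the WT median. For Il11ra1 it was −0.30 (SE 0.12, unadjusted p = 0.0282, adjusted p = 0.328), also with 5 of 5 below the WT median.

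The 8 macrophage markers also had lower mean levels in the sorted libraries labelled IL33KO. Their summed level was 18343 to 21058 CPM in sorted WT and 10969 to 16864 CPM in sorted libraries labelled IL33KO, without overlap. All 8 had negative log2 differences (median −0.46, against +0.02 over all genes), 5 at an unadjusted p under 0.05, and 0 passed after adjustment. These 5 were Apoe, Trem2, C1qa, C1qb and C1qc. Apoe held the largest part of the sum, with a mean of 8950 CPM in sorted WT and 5543 CPM in sorted libraries labelled IL33KO. Adgre1 (−0.24), Csf1r (−0.20) and Mrc1 (−0.09) differed less (unadjusted edgeR p 0.153 to 0.727). The sum thus does not tell macrophage number from macrophage state. The part of macrophage number or state in the lower Osm, Socs3 and Il11ra1 values was not tested. The pan-leukocyte sum, at 7066 to 9497 CPM and 7074 to 8922 CPM, overlapped between the hosts.

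The remaining sorted members had intervals of the difference that included 0. These are 95% intervals by a normal approximation from the SE, which makes them somewhat too narrow with 5 libraries per group. The log2 difference was −0.21 for Il6 (−0.93 to 0.51), −0.30 for Lif (−0.78 to 0.18), +0.11 for Il6ra (−0.04 to 0.26), +0.40 for Osmr (−0.05 to 0.85), +0.15 for Lifr (−0.12 to 0.42) and +0.23 for Il6st (−0.02 to 0.48). For Il6 and Lif these intervals reach farthest on the negative side, so a moderate fall of either gene is not excluded at this spread.

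In bulk tumour 0 of 10 members passed (0% of the 17258 genes tested passed), and 0 lay at an unadjusted p under 0.05, where 6.36% of all genes lay. All 10 overlapped between the hosts, while 0.672% of all genes did not. The log2 differences ran from −0.18 for Osmr (SE 0.09, adjusted p = 0.724) to +0.49 for Il6 (SE 0.65, adjusted p = 0.804). Osm was at −0.09 (SE 0.49, adjusted p = 0.954), Lif at +0.02 (SE 0.23, adjusted p = 0.979) and Socs3 at +0.10 (SE 0.17, adjusted p = 0.846). Bulk WT 5 held the highest bulk WT value of Il6, Osm, Lif, Il11, Lifr, Il11ra1 and Socs3, with a pan-leukocyte sum of 1245 CPM against 548 to 964 CPM in the other 4. It also held 8690 CPM of acinar markers against 36.6 to 40.6 CPM, and 893 CPM of skeletal muscle markers against 0.649 to 1.72 CPM. Without it the log2 difference was +1.48 for Il6 (adjusted p = 0.118) and +0.57 for Osm (adjusted p = 0.329). Bulk WT 3 and 5 had the most B cell marker RNA of the bulk WT libraries, and the highest pan-leukocyte sums (964 and 1245 CPM). The other bulk WT libraries had 548 to 555 CPM, and bulk libraries labelled IL33KO 652 to 1305 CPM. Without bulk WT 3 and 5, Il6 (log2 +1.92, edgeR adjusted p = 0.0375) and Il11ra1 (log2 +0.62, adjusted p = 0.0249) passed. Osm then stood at +0.96 (adjusted p = 0.0539). Leaving out these libraries was a choice made after seeing the data. DESeq2 called 0 members, and voom with quality weights passed the same 2 members (Il6 +1.50, adjusted p = 0.0279, and Il11ra1 +0.59, adjusted p = 0.0176). Voom called 3371 of the 17258 genes, and the edgeR fit without bulk WT 3 and 5 called 2174 genes. Calls in these 2 fits were thus not particular to the members. Stromal markers also had higher values in the bulk libraries labelled IL33KO: the log2 difference was positive for 8 of 8 fibroblast markers (median +1.01, 5 at an unadjusted p under 0.05) and for 5 of 5 mesothelial markers (median +2.05, 4 at an unadjusted p under 0.05), and 0 of either list passed after adjustment. Fibroblast sums were 907 to 2122 CPM in WT and 1246 to 4662 CPM in libraries labelled IL33KO, and mesothelial sums had medians of 10.2 CPM (highest 29.2 CPM) and 37.4 CPM (highest 108 CPM). Most leukocyte lists had positive differences there too: 8 of 8 pan-leukocyte (median +0.29), 8 of 8 macrophage (+0.27) and 6 of 6 T cell markers (+0.19). The same held for 5 of 5 B cell (+1.40) and 5 of 5 mast cell and basophil markers (+0.46). Of the neutrophil markers 3 of 6 were positive (median −0.03), and 0 genes of these lists passed after adjustment. The part of stromal and leukocyte content in the Il6 and Il11ra1 values was not tested.

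**Figure D4:**
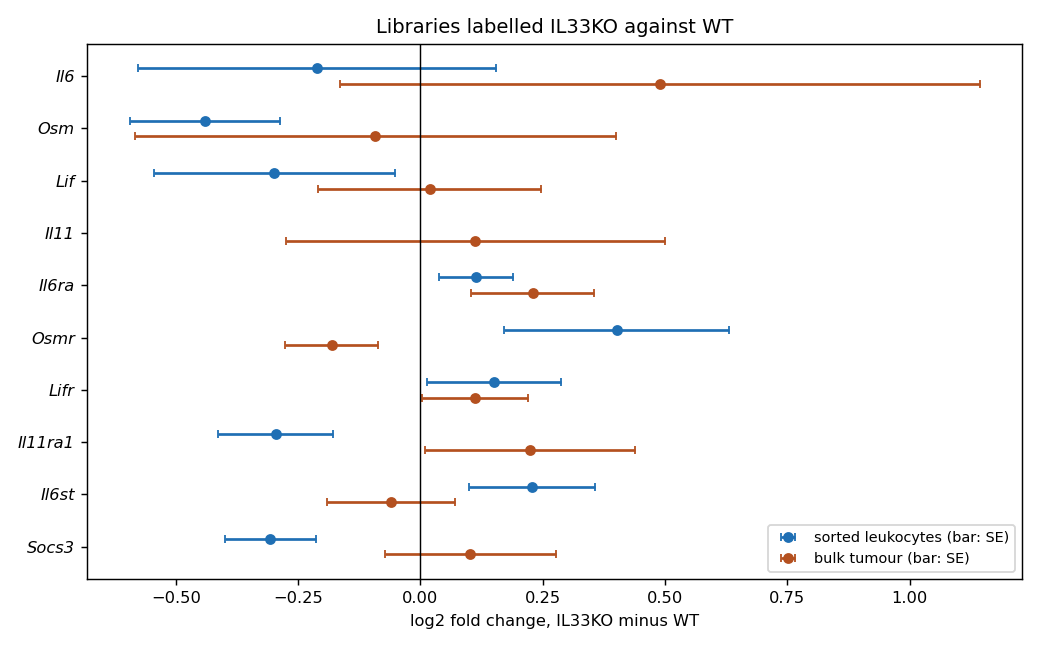
Log2 fold change of each gene, libraries labelled IL33KO minus WT, with its standard error, in sorted leukocytes and bulk tumour (5 libraries per group). Il11 was not tested in sorted leukocytes; none of the points passed the adjusted threshold.

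The difference of the host contrasts between sorted and bulk libraries was tested in 1 fit of all 20. It passed for 0 of 10 members (0% of 18145 genes passed), and 1 member, Osmr, lay at an unadjusted p under 0.05 (11.2% of all genes), at +0.56 (SE 0.25, unadjusted p = 0.0407, adjusted p = 0.445). DESeq2 called 0 members. Limma voom called 3, Osm (−1.16, adjusted p = 0.0195), Il11ra1 (−0.91, adjusted p = 0.00707) and Socs3 (−0.48, adjusted p = 0.0210), which stood at −0.36, −0.54 and −0.43 in edgeR (adjusted p 0.447 to 0.797). Voom called 3406 of the 18145 genes for this contrast, so its calls were not particular to the members.

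Among the pathway lists, 0 genes passed between the hosts in either compartment. In sorted leukocytes 13 of the 15 STAT3 target genes had negative log2 differences (median −0.26; all genes +0.02), 6 of them at an unadjusted p under 0.05, where 12.9% of all genes lay. The macrophage markers also had lower mean levels there (8 of 8 negative, median −0.46, summed levels without overlap), and their part in this list was not tested. The smallest p were those of Cebpd (log2 −0.51, SE 0.11, adjusted p = 0.153), Cebpb (−0.75, SE 0.19, adjusted p = 0.176), Bcl3 (−0.39, SE 0.10, adjusted p = 0.179) and Junb (−0.67, SE 0.22, adjusted p = 0.256), all transcription regulators. In bulk tumour 10 of the 15 were positive (median +0.11; all genes +0.01), and 0 lay at an unadjusted p under 0.05. Ebi3 in sorted leukocytes, at 49.9 CPM in WT and 36.3 CPM in libraries labelled IL33KO, had the smallest p of the gp130 relatives (log2 −0.45, SE 0.08, unadjusted p = 0.000217, adjusted p = 0.144). Socs1, a relative of Socs3, stood at −0.48 (SE 0.20, adjusted p = 0.359), and the acute-phase gene Lrg1 at −0.55 (SE 0.24, adjusted p = 0.362). In bulk tumour the smallest p of these lists was that of the acute-phase gene Reg3g (log2 −1.64, SE 0.45, unadjusted p = 0.00397, adjusted p = 0.724).

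Socs3 was related to each of the other 9 members across the 10 sorted and the 10 bulk libraries, 18 relations in all, by log2 CPM. By Pearson's r, 0 of the 18 passed after Benjamini-Hochberg adjustment of the permutation p. In sorted leukocytes Osm came closest (r = 0.69, permutation p = 0.0262, adjusted 0.093; Spearman's rho = 0.78, permutation p = 0.0104, adjusted 0.0468). Without the 2 libraries farthest from the median of Osm, r was 0.50, and within the hosts it was −0.08 over the 5 WT libraries and 0.86 over the 5 labelled IL33KO, so the relation did not hold within both hosts. In bulk tumour Lif gave r = 0.80 (permutation p = 0.00562, adjusted 0.0718; rho = 0.79, permutation p = 0.00847, adjusted 0.0468), 0.72 without its 2 outermost libraries, 0.95 within WT and 0.16 within libraries labelled IL33KO. Il6 (r = 0.73, rho = 0.79) and Il11 (r = 0.71, rho = 0.78) also passed by rho in bulk (adjusted 0.0468 each) and not by r (adjusted 0.081 and 0.09). Their r without the 2 outermost libraries, bulk WT 5 among them, was 0.46, and was 0.01 and −0.00 within libraries labelled IL33KO. By r, the receptor gene Il11ra1 was close to Lif in bulk (r = 0.77, adjusted permutation p = 0.0718), and Osm stood at r = 0.68 (adjusted 0.093). Neither passed by rho (adjusted 0.193 and 0.219), and their r was −0.20 and −0.21 within libraries labelled IL33KO.

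**Figure D5:**
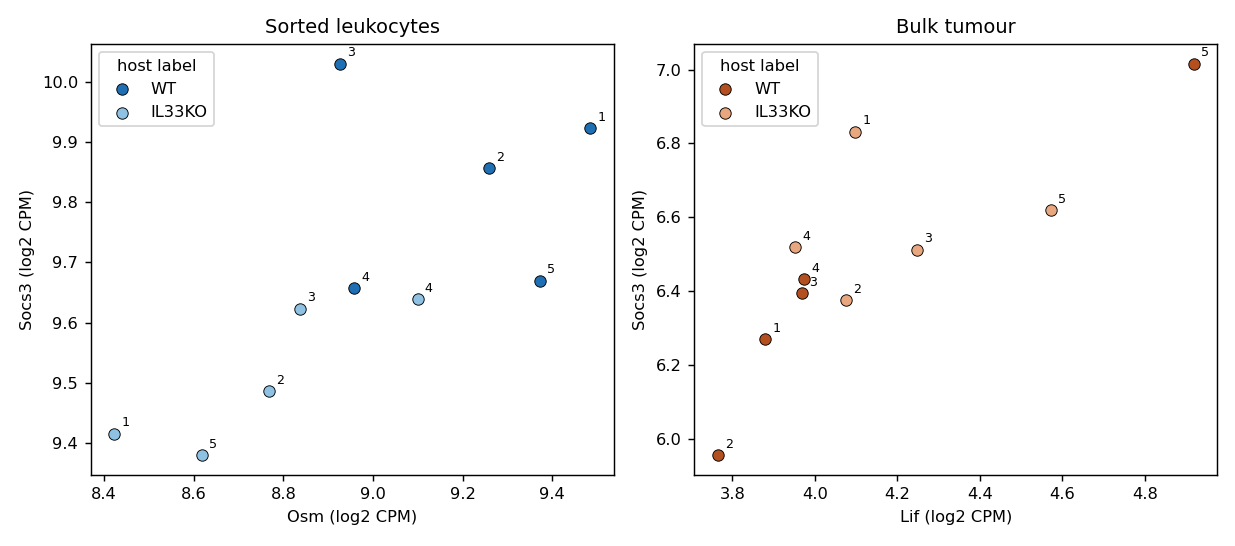
Socs3 against Osm in the 10 sorted libraries and against Lif in the 10 bulk libraries, both axes in log2 CPM, points numbered by replicate. In sorted leukocytes the 5 libraries labelled IL33KO lie below the WT libraries on the Socs3 axis, and in bulk tumour WT 5 has the highest value on both axes.

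Genes whose levels followed a member most closely were found over the 20 libraries after subtracting each group's mean, among 13024 genes with at least 1 CPM. This is a description over libraries that share depth and cell content. For Osm they were Bcl2a1b (r = 0.97), Isg15 (0.96) and Tyrobp (0.95), and for Socs3 Rab5c (0.92), Spi1 (0.92) and Actb (0.92). For Il6 they were Ctla2a (0.90), Thy1 (0.90) and Ptgs2 (0.89). Lif was followed by Csf2 (0.87), Ccdc136 (0.80) and Hbegf (0.80).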

How the data were processed

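Poly(A) RNA of 20 libraries was sequenced from stranded TruSeq libraries, per the labels' protocols. The authors deposited raw read counts per gene for all libraries; per the submitters' processing notes the tools were Picard, HTSeq and DESeq, with no version named, on build mm10, while aligner and strand setting were not given in the sources used here. A second deposited table, of scaled values, was not used. The 5 summary lines that name no gene held 26.1 to 40.5% of reads and were left out. Groups came from the sample titles; 0 of 40 replicate pairs were identical, and the lowest chi-square per gene was 18.3. Nothing ties libraries to single mice, so p-values measure the spread between libraries, which may be partly technical, and sorted and bulk libraries that share tumours would not be independent.

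Counts were fitted in R 4.3.3 with edgeR 4.0.16 (filterByExpr, TMM, robust glmQLFit, glmQLFTest), each host contrast within its 10 libraries and the others over all 20. Adjusted p are Benjamini-Hochberg over all genes tested, two-sided, threshold 0.05. Library sizes for CPM were scaled by TMM, with a prior count of 2 on the log2 scale; per-length levels use merged GENCODE M21 exons (GRCm38). Correlations used 100000 resamples. Alternatives were DESeq2 1.42.0 size factors and test, limma 3.58.1 voom with sample quality weights, no filter, the replicate number as a block, all 20 libraries or 10, a pan-leukocyte covariate and leaving out libraries. The fit was tested on simulated data. The members and all gene lists were chosen with earlier results of these data known. Named genes are all 10 members, Il33, at most 4 genes per pathway list and comparison by smallest p, and the 3 genes most alike to Il6, Osm, Lif and Socs3. Pecam1 and the macrophage markers are named to describe the marker sums.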

Additional observations from a re-analysis of the deposited data

Results flagged for a closer look

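Of 40 sets of 5 libraries, 10 genes in 4 groups, 4 held a library whose gap to the nearest of the others was over 0.71 of the whole range of its group (Dixon's ratio at the 95% level); chance gives about 1 in 20. Il6 stood at 23.0 CPM in sorted IL33KO replicate 4, against 8.44 to 11.0 CPM in the other 4. Bulk WT replicate 5 was apart for 3 ligand genes: Il6 at 1.90 CPM against 0.212 to 0.597 CPM, Lif at 30.2 CPM against 13.6 to 15.7 CPM, and Il11 at 0.935 CPM against 0.261 to 0.441 CPM. The same library held 8690 CPM of acinar markers against 36.6 to 40.6 CPM in the other 4, 893 CPM of skeletal muscle markers against 0.649 to 1.72 CPM, and 193 CPM of smooth muscle markers against 88.8 to 104 CPM. Its pan-leukocyte (1245 CPM) and fibroblast (2122 CPM) sums were also the highest of its group. The part of these in the values was not tested.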

How the results depend on the processing

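The members called between hosts, 0 in sorted leukocytes, stayed 0 under every alternative fit run there, and the range without each replicate was 0 to 0. In bulk tumour the count of 0 became 2 with limma voom and 2 without bulk WT replicates 3 and 5, and the range without each replicate was 0 to 0; for the difference of the host contrasts it became 3 with limma voom, and was 0 to 0 without each replicate. The cause was not tested. Sorted against bulk, 9 members were called in each host, with a range without each replicate of 8 to 9 in WT hosts and 7 to 9 in hosts labelled IL33KO; in the latter DESeq2 size factors gave 8 and a fit of those 10 libraries alone 10, with Il11ra1 gained (adjusted p = 0.0470). Whether libraries with the same replicate number share a tumour is not stated. Correlations of same-numbered deviations ran from −0.36 to 0.33 between sorted and bulk, −0.20 to 0.45 between sorted hosts and −0.11 to 0.70 between bulk hosts. With 5 libraries per group of unlike cell content, these values cannot settle it. With the replicate number as a block, 0 members were called between hosts in either compartment or for their difference, and 8 sorted against bulk in each host, Lifr being lost (adjusted p = 0.0668 and 0.0637). Over all genes, the 2 calls in sorted leukocytes became 476 with DESeq2, 400 with voom, 1 with the block, 1 with the pan-leukocyte covariate and 1 to 3 without each replicate. The 0 calls in bulk became 52 with DESeq2, 3371 with voom, 19 without bulk WT 5 and 2174 without bulk WT 3 and 5. For the difference of contrasts, 0 became 1 with DESeq2 size factors, 2 with DESeq2, 3406 with voom and 27 without bulk WT 5. No member's called direction reversed under the alternatives run. Relative to the pan-leukocyte markers, Il6ra lost its p under 0.05 without 2 libraries of WT hosts and 5 of hosts labelled IL33KO, taken singly (exact p 0.0556 to 0.0794), and Socs3 gained it without bulk IL33KO 5 (−0.37, exact p = 0.0159). Il11, at 1 to 10 counts in sorted libraries, is limited by depth.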
